A study of Mus musculus with 9 samples.

Results

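The muscle acetylcholine receptor and the agrin pathway that gathers it under the nerve were followed through 10 genes in cultured satellite cells of the mouse, which are the stem cells of skeletal muscle. The genes were taken by name: the receptor subunits Chrna1, Chrnb1, Chrnd, Chrng and Chrne, the signal Agrn, its receptor Lrp4, the kinase Musk, and the adaptor and scaffold genes Dok7 and Rapsn. All 10 had a row among the 22631 genes of the authors' deposited table of Mutant and Control cells. Per the authors' deposited table of the arms PT and PUT, 9 of the 10 were among 27775 genes, and Chrne had no row.

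The series holds 9 RNA libraries of satellite cells from hindlimb muscle of mice aged 9 weeks, in 3 groups of 3. Control mice were given oil. Mutant mice, which lack Uhrf1 in satellite cells, were given tamoxifen to switch on Cre recombinase, as 150 µl of a 20 mg/ml solution on each of 5 days, and Cre Control mice were also given tamoxifen. Uhrf1 is a factor that keeps DNA methylation in place when DNA is copied. Cells of the Control and Mutant groups were plated on Matrigel at 5000 per cm2 and grown for 3 days before RNA was taken. The Cre driver, the Uhrf1 allele, whether animals were pooled, and the genotype of the Control mice are not given in the sources used here. Because Mutant mice had tamoxifen and Control mice oil, effects of the drug and of Uhrf1 loss cannot be told apart in this comparison. The labels do not say which groups PT and PUT are, so those arms were given no group, and whether the 2 tables share libraries is not known.

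At the neuromuscular junction, a motor nerve releases acetylcholine onto receptors that are packed densely in the muscle membrane. Agrin from the nerve binds Lrp4, which turns on the kinase MuSK. Dok-7 binds MuSK inside the cell and raises its activity, and rapsyn ties the receptors into clusters. Fetal muscle builds its receptor from alpha, beta, delta and gamma subunits, and the epsilon subunit takes the place of gamma in adult innervated muscle. These cultures hold muscle precursors without a nerve.

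Receptor subunit genes are known for E-boxes near their starts, the sites of the muscle transcription factors of the MyoD family, so the stretch from 250 to 26 bases before the start is shown for the alpha subunit, for the fetal and the adult subunit, and for the genes of the pathway that rose (Musk) and that fell most (Dok7) in Mutant cells. RefSeq promoters on GRCm38.p6 were matched for 7 of the 10 genes. Capitals mark the letters CANNTG, the E-box, which reads alike on both strands. Each sequence runs 5′ to 3′ on the strand of its gene.
Chrna1, chr2:73580364-73580588, minus strand: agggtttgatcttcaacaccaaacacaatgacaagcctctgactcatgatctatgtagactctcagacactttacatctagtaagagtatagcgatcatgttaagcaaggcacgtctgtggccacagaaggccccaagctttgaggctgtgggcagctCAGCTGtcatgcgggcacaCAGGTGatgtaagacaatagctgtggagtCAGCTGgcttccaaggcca
Chrng, chr1:87205561-87205785, plus strand: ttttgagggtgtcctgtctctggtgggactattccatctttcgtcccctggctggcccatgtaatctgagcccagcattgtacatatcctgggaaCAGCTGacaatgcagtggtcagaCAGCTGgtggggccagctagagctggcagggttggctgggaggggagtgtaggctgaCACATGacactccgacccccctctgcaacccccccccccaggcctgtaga
Chrne, chr11:70619220-70619444, minus strand: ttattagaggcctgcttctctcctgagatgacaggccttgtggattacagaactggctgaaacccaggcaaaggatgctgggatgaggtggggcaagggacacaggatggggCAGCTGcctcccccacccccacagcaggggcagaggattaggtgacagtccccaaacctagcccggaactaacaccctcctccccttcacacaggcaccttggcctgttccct
Musk, chr4:58285712-58285936, plus strand: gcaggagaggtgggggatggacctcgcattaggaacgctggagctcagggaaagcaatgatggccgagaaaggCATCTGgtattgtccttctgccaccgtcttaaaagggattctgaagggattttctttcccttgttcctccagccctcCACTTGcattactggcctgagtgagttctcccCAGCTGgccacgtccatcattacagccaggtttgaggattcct
Dok7, chr5:35056516-35056740, plus strand: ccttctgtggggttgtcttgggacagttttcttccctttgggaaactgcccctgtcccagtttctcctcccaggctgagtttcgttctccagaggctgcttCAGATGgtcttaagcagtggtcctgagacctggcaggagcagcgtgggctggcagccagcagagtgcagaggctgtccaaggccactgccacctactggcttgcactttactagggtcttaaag

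Chrna1, Chrng and Musk each held 3 E-boxes in these 225 bases, against 1 in Chrne and 1 in the Dok7 stretch shown. Of the other matched starts, Chrnb1 held 2, the first and second of Agrn 0 and 1, and the second of Dok7 0. Of 32851 RefSeq promoter stretches of the same length, 62.7% held CANNTG, so its presence alone is common. The median was 1 per stretch and the mean 1.05. Whether E-box number goes with level or change was not tested. The form CAGCTG, a special case of CANNTG, was in 11.6% of all stretches. It occurred 2 times in the Chrna1 stretch, 2 times in that of Chrng, 1 time in that of Musk and 1 time in that of Chrne. The RefSeq start of Chrng lies inside the gene as GENCODE M21 draws it, so the Chrng stretch is not upstream of the whole gene. In Chrne it was accompanied by 1 copy of CCGGAA (searched on both strands and in 9.80% of all stretches), the core of the element that ETS family factors such as GABP bind. The CG dinucleotide, the site of DNA methylation, was sparse in the stretches of Chrne (1), Chrng (2), Dok7 (2) and Chrna1 (3), all under the median of 5 over all stretches. Musk and the second of the 2 Agrn starts had 5 each, and Chrnb1 had 12, at percentile 70.8. The first Agrn start had 31, at percentile 96.7. The second Dok7 start, which lies inside the gene, had 24. Methylation itself was not measured here, and these letters were matched and counted only.

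In the GENCODE M21 annotation (GRCm38), all 10 are protein-coding genes whose identifiers and versions equal those of the table. Chrnd (chr1:87190607-87200070) and Chrng (chr1:87204657-87212694) are neighbours on the plus strand of chromosome 1, with 4586 bases between them and no other protein-coding gene in the gap. Chromosome 2 carries Chrna1 (chr2:73563215-73580338, minus strand), Rapsn (chr2:91035620-91045729, plus) and Lrp4 (chr2:91457511-91513779, plus). Chromosome 4 carries Musk (chr4:58285960-58374303, plus) and Agrn (chr4:156165290-156197488, minus), and Dok7 lies at chr5:35056766-35087839 (plus). Chrnb1 (chr11:69784036-69795943) and Chrne (chr11:70614883-70619216) lie on the minus strand of chromosome 11. Chrne overlaps 4930544D05Rik and Rapsn overlaps the non-coding Gm13778, each on the other strand. The library kit marked strand, but the sources used here do not give whether counting used it, so reads of such overlapping pairs may not have been told apart.

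The gene tables hold authors' means and comparisons, with no value per library, so levels are printed with no SD. For genes with a Control mean between 12 and 80 TPM, the mean multiplied by 3 was a whole multiple of 0.0001 TPM (within 0.01 of a step) for 98.5% of 6002 genes, against 33.5% when multiplied by 2. For Mutant means it was 98.7% of 6205 genes. The digits of the means therefore fit an average of 3 libraries in each group (or a multiple of 3), and 3 is the number that the labels give. The library labelled Control 3 stood apart in the authors' deposited repeat counts. There, the retroviral sequence IAPEz-int made up 13.1% of 2022421 counts (95% Wilson interval 13.1 to 13.2), against 0.501% and 0.675% in the other Control libraries and 9.29% to 16.3% in the Mutant libraries. No gene value can be given without it. Uhrf1 had means of 118 TPM in Control and 20.4 TPM in Mutant, with a log2 estimate of −3.12 (SE 0.60) per the authors' deposited table. Its estimate was −4.00 (SE 0.27) per the authors' deposited table of PT and PUT, whose order of names is read as positive for higher in PT.

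Receptor genes were strongly expressed in these cultures, in the fetal form. TPM is scaled per transcript length, so levels can be set side by side between genes. Chrna1, the alpha subunit that binds acetylcholine and is present in 2 copies per receptor, was the most abundant of the 10, with authors' means of 400 TPM in Control and 415 TPM in Mutant. That placed it above 98.5% of all genes of the table. Chrnb1, the beta subunit, had means of 107 and 103 TPM, so Chrna1 stood 3.74 times above it in Control and 4.03 times in Mutant. Chrng, the fetal gamma subunit, had means of 82.7 TPM in Control and 78.0 TPM in Mutant. Chrne, the adult epsilon subunit, had 0.343 and 0.201 TPM. The gamma transcript was therefore 241 times the epsilon transcript in Control and 388 times in Mutant, and the second ratio rests on a very low epsilon mean.

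Apart from Agrn, the genes of the clustering pathway had levels like those of the beta, gamma and delta subunits. Musk had the second highest level of the 10, with authors' means of 122 TPM in Control and 148 TPM in Mutant. Dok7 followed at 117 and 92.3 TPM and Rapsn at 86.1 and 75.1 TPM. Lrp4, at 64.0 and 51.1 TPM, lay near the delta subunit Chrnd, at 64.6 and 51.7 TPM. Agrn was low among the expressed members, at 9.44 TPM in Control and 9.65 TPM in Mutant. Musk was 12.9 times the Agrn level in Control and 15.3 times in Mutant. By the mean over all libraries the order was Chrna1 (408 TPM), Musk (135), Chrnb1 (105), Dok7 (104), Rapsn (80.6), Chrng (80.3), Chrnd (58.2), Lrp4 (57.5), Agrn (9.54) and Chrne (0.272). Without values per library it cannot be said which neighbours in that order differ beyond their spread.

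**Figure D1:**
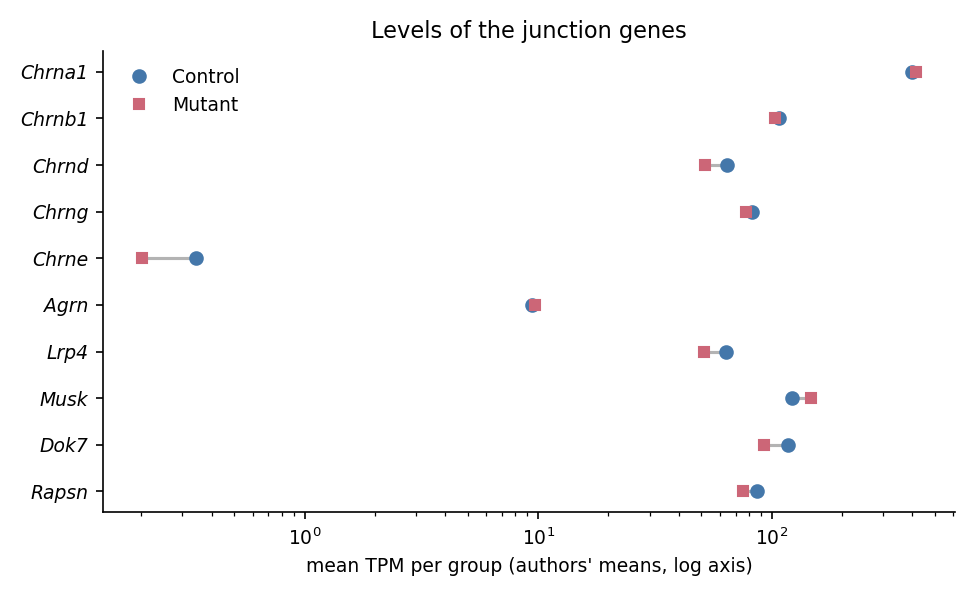
Authors' mean TPM of each gene in Control (circles) and Mutant (squares) on a log axis, with no error bars because the deposited table gives means only. Chrna1 stands highest at 400 and 415 TPM, Chrne lies lowest at 0.343 and 0.201 TPM, and the 2 groups lie close together for Chrna1, Chrnb1, Chrng and Agrn.

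The first comparison, Mutant against Control, asked what differed in cells of mice labelled as lacking Uhrf1, in which its transcript was lower but still present. Of the 10 genes, Musk rose, Chrnd and Dok7 fell, and the other 7 did not pass an adjusted p of 0.05 per the authors' deposited table. The share of all its genes that passed was 17.1% (9.02% higher and 8.11% lower), and it was 27.6% among the 13625 genes that averaged 1 TPM or more. The count of 3 in 10 is near that second share and is no result about these genes as a group. The median estimate was −0.10 for the 10 genes and 0.01 for all genes.

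Within the receptor, the delta subunit was the one that passed. Chrnd fell by 19.9% by its means (64.6 to 51.7 TPM), with a log2 estimate of −0.40 per the authors' deposited table (SE 0.09, 95% interval −0.58 to −0.21, adjusted p = 0.000314). Chrna1 had an estimate of 0.04 (SE 0.05, interval −0.07 to 0.15, adjusted p = 0.847 per the authors' deposited table). Chrnb1 had 0.01 (SE 0.09, interval −0.17 to 0.18, adjusted p = 0.992 per the authors' deposited table), with a sign that turns when the means are used (−0.05). For both, the interval, as read from the deposited SE, leaves room for changes of less than 0.2 on the log2 scale only. For Chrng it does not: its estimate of −0.16 had an SE of 0.32 per the authors' deposited table, and the interval ran from −0.78 to 0.46. These intervals take the group labels as given. The library labelled Control 3, whose IAPEz-int share lay within the range of the Mutant libraries, belongs to the Control group, and its effect on these estimates was not tested. Chrne was too low to be informative, with an interval from −3.81 to 3.74 per the authors' deposited table. Chrnd and Chrng, though neighbours, thus differ in what was measured: the first passed the threshold, and the second had an error too wide to show a change of that size. The difference between the genes was not tested.

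In the clustering pathway, the kinase and its adaptor moved in opposite directions. Musk rose by 21.5% by its means, with an estimate of 0.23 per the authors' deposited table (SE 0.06, interval 0.12 to 0.35, adjusted p = 0.000690). Dok7 fell by 20.9% by its means, with an estimate of −0.49 per the authors' deposited table (SE 0.07, interval −0.62 to −0.36, adjusted p = 1.60e-11), the smallest adjusted p of the 10. The ratio of its means is smaller than that estimate, at −0.34 on the log2 scale. Lrp4 (−0.38, SE 0.16, adjusted p = 0.0857) and Rapsn (−0.19, SE 0.08, adjusted p = 0.0802) did not pass per the authors' deposited table. Their unadjusted 95% intervals, −0.70 to −0.07 and −0.34 to −0.04, lay below 0. Agrn had −0.02 (SE 0.10, interval −0.22 to 0.19, adjusted p = 0.955 per the authors' deposited table).

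The second comparison, PT against PUT, called Dok7 again, together with 5 members that had not passed in the first, and Chrnd and Musk did not pass. Per the authors' deposited table of these arms, 6 of the 9 genes passed, 2 with positive and 4 with negative estimates. The table as a whole had 47.2% of genes called (25.1% positive and 22.1% negative), and 61.1% among the 19118 genes that averaged 10 normalised counts or more. The count of the junction genes is again near that share. Their median estimate was −0.12, against 0.14 for all genes.

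Among the subunits, Chrna1 was 2.00 times higher in PT by the estimate of the authors' deposited table (1.00, SE 0.07, interval 0.87 to 1.13, adjusted p = 2.55e-49). Chrnb1 was 1.49 times higher (0.58, SE 0.09, interval 0.40 to 0.75, adjusted p = 5.01e-10 per the authors' deposited table). Chrnd and Chrng did not pass, with −0.05 (SE 0.12, interval −0.28 to 0.19) and −0.12 (SE 0.32, interval −0.74 to 0.51) per the authors' deposited table. The alpha and beta subunits thus differed here while delta, which fell in Mutant cells, did not pass.

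The clustering genes were lower in PT, apart from Musk. Rapsn was 1.98 times lower by the estimate of the authors' deposited table (−0.98, SE 0.08, interval −1.14 to −0.83, adjusted p = 9.27e-33). Agrn was 1.74 times lower (−0.80, SE 0.10, interval −1.00 to −0.61, adjusted p = 8.30e-15 per the authors' deposited table). Dok7 was 1.59 times lower (−0.67, SE 0.08, interval −0.82 to −0.52, adjusted p = 9.26e-18 per the authors' deposited table), and Lrp4 1.34 times lower (−0.42, SE 0.18, interval −0.77 to −0.08, adjusted p = 0.0350 per the authors' deposited table). Musk had 0.12 (SE 0.08, interval −0.04 to 0.29, adjusted p = 0.218 per the authors' deposited table). Set side by side, the Mutant and PT estimates were −0.49 and −0.67 for Dok7, −0.38 and −0.42 for Lrp4, and −0.19 and −0.98 for Rapsn per the authors' deposited tables. For Chrna1 they were 0.04 and 1.00 and for Agrn −0.02 and −0.80. The tables may share libraries, so a like sign in both is no independent support.

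**Figure D2:**
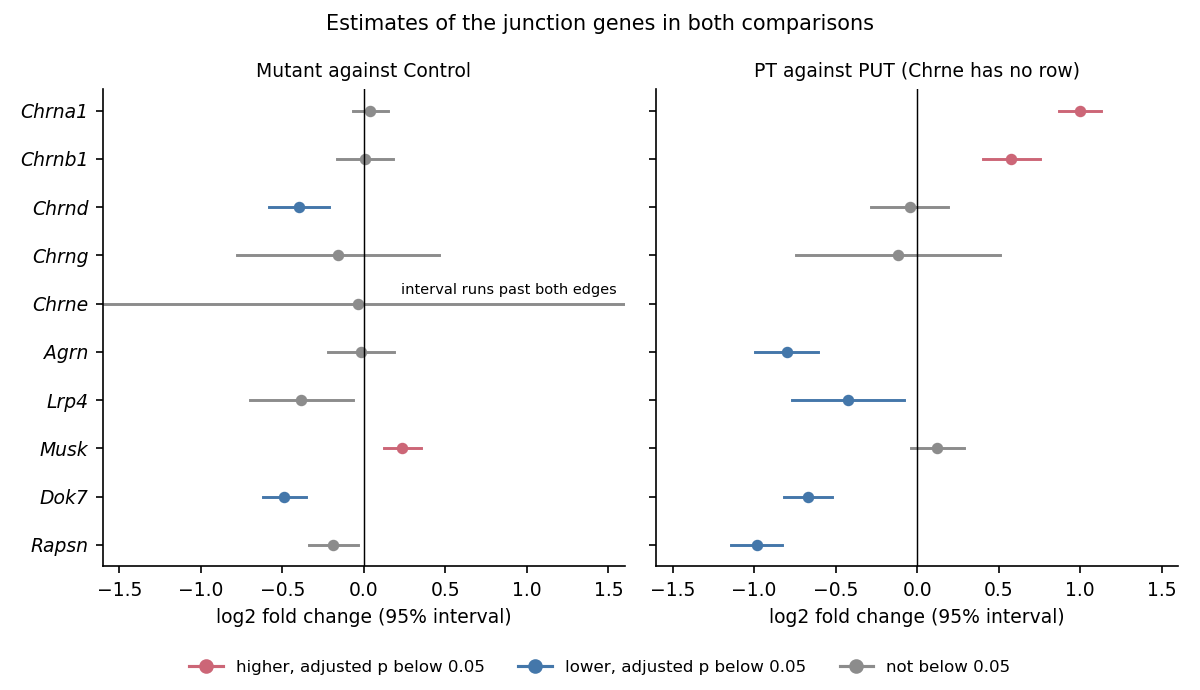
Log2 estimates (points) with 95% intervals (bars) for the 10 genes in Mutant against Control (left) and PT against PUT (right), coloured by the deposited adjusted p. On the left Musk lies to the right of 0 and Chrnd and Dok7 to the left, on the right Chrna1 (1.00) and Chrnb1 (0.58) lie above 0 and Agrn, Lrp4, Dok7 and Rapsn below it, and the Chrne interval (−3.81 to 3.74) runs past both edges.

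The precision of these estimates differed strongly between members. Set beside genes of within 2-fold the same level, the SE of Chrng was at percentile 98.2 of 3122 genes per the authors' deposited table of Mutant and Control, 4.20 times their median. Lrp4 was at percentile 94.7 of 3914 genes. Per the authors' deposited table of PT and PUT the same 2 genes were at percentiles 99.5 and 98.4, and Chrnd at 95.9. The other members with a level above 1 TPM were at or below percentile 77.0 in the first table, with Agrn lowest at 9.06. A high SE at a given level can reflect spread between the libraries of a group, and which library did so cannot be read from the tables. In the first table the level is TPM, which is scaled by length, so the read count behind a given level also differs between genes. Agrn was at percentile 35.7 in PT against PUT, where genes were matched by normalised counts. The part of read count and of spread in these SEs was not tested. Genes of myogenic differentiation also had high SEs for their level. Of 20 genes of muscle regulation and differentiation, 17 were above percentile 90 per the authors' deposited table of Mutant and Control and 18 in that of PT and PUT. Myog, the transcription factor myogenin, which starts differentiation, was at percentiles 97.8 and 99.9, and Myod1, which is already on in myoblasts, at 35.7 and 41.5.

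**Figure D3:**
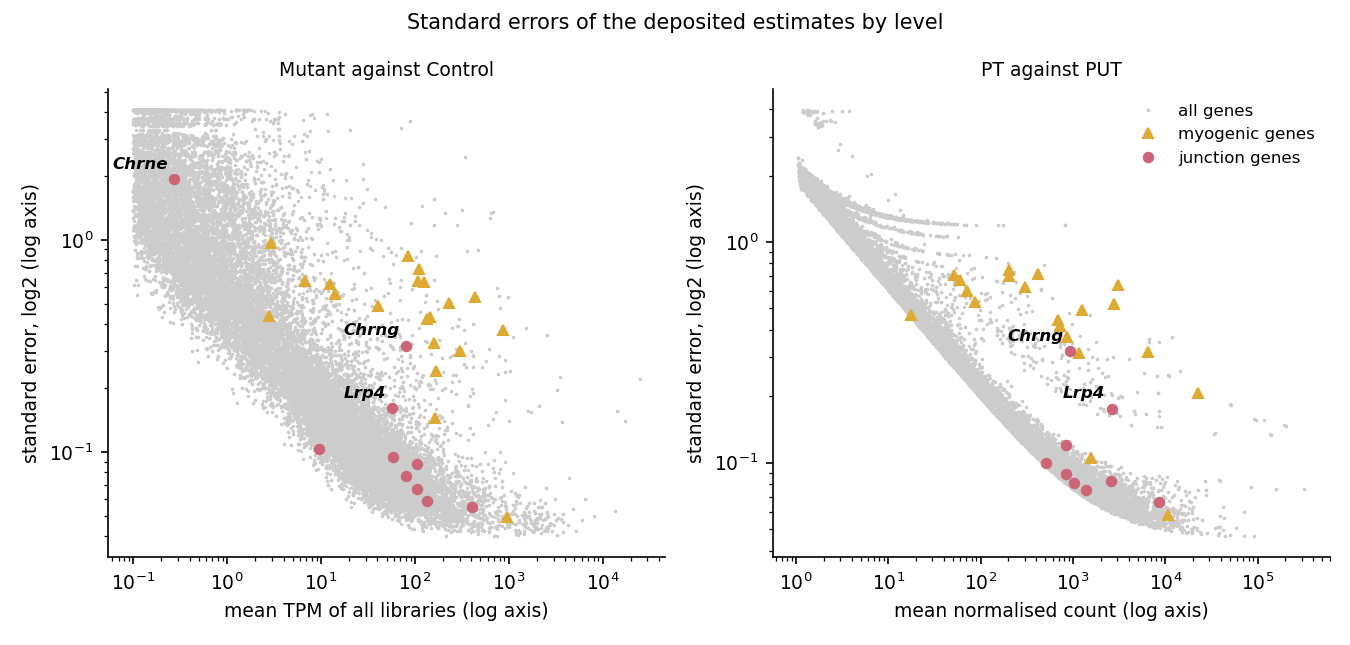
Standard error of the estimate (y axis, log2, log axis) against the level (x axis, log axis) for each gene in Mutant against Control (left; genes above 0.1 TPM) and PT against PUT (right), with junction genes as circles and myogenic genes as triangles. Chrng and Lrp4 lie above most genes of their level in both panels, Lrp4 lower than most triangles, while the other junction genes above 1 TPM lie within or near the main band.

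Beside these results stand the genes that mark the state of the culture. All 8 satellite cell and myoblast markers had a mean of at least 26.4 TPM, the value of Pax7, with Myod1 highest (1018 TPM in Control and 914 TPM in Mutant). In Mutant cells 6 of the 8 passed per the authors' deposited table: Pax7 (0.35) and Des (0.19) rose, and Myod1, Cdh15 (−0.31), Itga7 (−0.23) and Vcam1 (−0.38) fell. There, 17.1% of all genes passed, and 27.6% of those that averaged 1 TPM or more. Between PT and PUT all 8 passed, 7 of them negative and Myf5 (0.83) positive, with a median of −0.52 against 0.14 for all genes per the authors' deposited table. In those arms 47.2% of all genes passed (22.1% negative), and 61.1% of those that averaged 10 normalised counts or more. No test of the marker list against these shares was run. Of the 8 markers, those other than Myod1 are named after their values were seen. The negative sign of the 7 is that of Rapsn, Agrn, Dok7 and Lrp4 in the same arms, and the part of the satellite cell state in those values was not tested. Of the 20 myogenic genes, all 20 had a negative estimate per the authors' deposited table of Mutant and Control, with a median of −0.63, but 2 passed, both lower: Myod1 (−0.17, SE 0.05) and Actc1, a sarcomeric actin (−2.30, SE 0.84). Myog, at 589 and 291 TPM, did not pass (−1.03, SE 0.54, adjusted p = 0.219 per the authors' deposited table). In PT against PUT, 10 of the 20 had a positive estimate, 3 passed with positive and 3 with negative sign, and the median was 0.01 per the authors' deposited table. The calls among the 20 in both comparisons are read against the shares of all genes given above. The part of differentiation in the changes of Chrnd, Musk and Dok7 was not tested. In such bulk libraries, fewer cells of a type and less RNA per cell cannot be told apart.

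Markers of nerve and glia were low. Ngfr, Laptm5, Pecam1, Ly6a and Stmn2 are named as the highest of their lists, and the others after their values were seen. The 7 motor neuron and neuron markers with a row summed to 0.578 TPM in Control and 0.804 TPM in Mutant, none above 0.193 TPM (Stmn2) by its mean over all libraries, and Chat, Slc18a3 and Mnx1 had no row per the authors' deposited table. The 8 Schwann cell markers summed to 12.8 and 20.6 TPM, with Ngfr (2.86 to 9.84 TPM) and Mbp (1.75 to 3.94 TPM) higher in Mutant per the authors' deposited table, and Sox10, which defines the lineage, at 0.333 and 0.289 TPM. Mag, the highest of the 8 in Control, was at 5.38 TPM there and 4.19 TPM in Mutant. It did not pass (0.23, SE 0.65, adjusted p = 0.926 per the authors' deposited table). Macrophage and leukocyte markers summed to 32.3 TPM in Control and 111 TPM in Mutant. Of the 5 with a row, Laptm5 (25.1 to 84.8 TPM, most of the difference in the sum) and Cd68 rose per the authors' deposited table. Fcer1g, at 3.22 and 19.3 TPM, did not pass (2.48, SE 1.27, adjusted p = 0.203 per the authors' deposited table), while Ptprc and Csf1r lay under 0.5 TPM in both groups and Adgre1 had no row. Of 4 endothelial markers (7.86 and 6.51 TPM summed), Tek rose and Pecam1 and Cdh5 fell per the authors' deposited table. Of 5 fibroblast markers (31.3 and 46.4 TPM, with Ly6a at 15.1 and 22.4), 0 passed the DESeq2 test and 2 had an unadjusted p below 0.05. The Mutant calls were thus 2 of 8 Schwann cell, 0 of 7 neuron, 2 of 5 macrophage, 3 of 4 endothelial and 0 of 5 fibroblast markers. Among all genes 17.1% passed, and 27.6% of those that averaged 1 TPM or more. No list was tested against these shares, and each holds few genes. Per the authors' deposited table of PT and PUT, positive calls were 2 of 7 Schwann cell, 0 of 3 neuron (also 0 with an unadjusted p below 0.05), 2 of 4 macrophage, 1 of 4 endothelial and 2 of 4 fibroblast markers, with 1 macrophage marker negative. That marker was Csf1r (−0.46, SE 0.16), with a mean of 177 normalised counts in those arms. The share of all genes of that table called positive was 25.1%, and with so few markers these counts set no list apart from that share. The part of these other cells in the results was not tested.

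By TPM, the acetylcholine receptor subunits of neurons were a background to the muscle subunits. Of 11 genes, 10 had a row and summed to 4.88 TPM in Control and 5.46 TPM in Mutant, against 654 and 648 TPM for the 5 muscle subunits. Chrna7, the alpha7 subunit, was highest at 2.54 and 2.69 TPM, and Chrna5 was at 0.447 and 0.628 TPM. Of the 10, 0 passed the DESeq2 test per the authors' deposited table, where 17.1% of all genes passed. In that of PT and PUT, 0 of the 6 with a row did so, where 47.2% of all genes passed. With an unadjusted p below 0.05 the counts were also 0 and 0. Of the 10 genes, 9 averaged under 1 TPM, and the median SE was 1.12 in the first comparison and 1.36 in the second. These counts therefore do not show that the genes were unchanged. Chrna6 and Chrna10 were listed at 0 TPM in Control.

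A wider list of 49 genes of the junction, of which 48 had a row, split in both directions. In Mutant cells 6 rose and 8 fell per the authors' deposited table, so 14 of 48, near the 27.6% of all genes that averaged 1 TPM or more, and the median estimate was −0.07 against 0.01 for all genes. In PT against PUT, 11 of 47 were positive and 14 negative per the authors' deposited table, with a median of −0.02 against 0.14. That is 25 of 47 called, between the shares of 47.2% over all genes and 61.1% over those of at least 10 normalised counts. Neither count is a result about junction genes as a group, and the counts by role, which rest on few genes, are read against the same shares.

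Downstream of MuSK, 1 gene of 14 rose and 1 fell in Mutant cells. There, 17.1% of all genes passed, and 27.6% of those that averaged 1 TPM or more, as all 14 did. Cttn, cortactin, a partner of branched actin, rose from 198 to 303 TPM (0.57, SE 0.16, adjusted p = 0.00225 per the authors' deposited table). Abl2, of the Abl kinases that signal in receptor clustering, fell from 73.7 to 58.7 TPM (−0.32, SE 0.06, adjusted p = 6.70e-07 per the authors' deposited table). In PT against PUT, 2 of 14 were positive and 6 negative, beside 47.2% of all genes called and 61.1% at 10 normalised counts or more. Among them, Abl1 had −1.03 (SE 0.07), Ptpn11, a phosphatase, −0.59 (SE 0.06), Abl2 −0.37 (SE 0.06) and the adaptor Crk −0.17 (SE 0.06), while Rac1 (0.24, SE 0.06) and Fyn (0.45, SE 0.13) were positive per the authors' deposited table.

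Of 8 genes of the synaptic basal lamina, 2 rose and 1 fell in Mutant cells. Hspg2, perlecan, which anchors acetylcholinesterase, rose from 178 to 196 TPM (0.15, SE 0.05, adjusted p = 0.0130 per the authors' deposited table). The other 2 were low, and were named after their values were seen: Colq, the collagen tail of acetylcholinesterase, rose from 0.106 to 0.706 TPM, and Lama4 fell from 1.42 to 0.543 TPM per the authors' deposited table. Ache, the enzyme itself, was at 0.430 and 0.334 TPM and did not pass (−0.58, SE 0.72, adjusted p = 0.798 per the authors' deposited table). In PT against PUT, Col13a1, a muscle collagen of the junction, had −2.08 (SE 0.26) and Lamb2, the synaptic laminin beta2 chain, −0.84 (SE 0.10), per the authors' deposited table. Colq and Lama4 were positive there, at means of only 8.30 and 11.1 normalised counts.

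In the postsynaptic membrane and cytoskeleton, 2 of 10 genes rose and 2 fell in Mutant cells. Utrn, utrophin, which gathers at the crests of the junctional folds, rose from 61.0 to 69.3 TPM (0.15, SE 0.05, adjusted p = 0.0137 per the authors' deposited table). Nos1, the neuronal nitric oxide synthase that muscle also makes, rose from 0.496 to 2.01 TPM (2.42, SE 0.53, adjusted p = 8.82e-05 per the authors' deposited table). Sntb1, a syntrophin, fell from 24.1 to 11.1 TPM (−1.06, SE 0.35) and Scn4a, the sodium channel of muscle, from 2.66 to 1.24 TPM (−1.24, SE 0.39) per the authors' deposited table. In PT against PUT, Nos1 (2.65, SE 0.33) and Dtnb (0.51, SE 0.13) were positive and Plec (−0.75, SE 0.05), Dag1 (−0.26, SE 0.09) and Utrn (−0.21, SE 0.06) negative per the authors' deposited table.

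Neuregulin signalling and synaptic transcription were followed through 10 genes, of which 9 had a row, and 1 rose and 2 fell in Mutant cells. Erbb3, a neuregulin receptor, fell from 11.4 to 4.12 TPM (−1.49, SE 0.40, adjusted p = 0.00206 per the authors' deposited table), and its partner Erbb2 did not pass (0.03, SE 0.10). Gabpa, a subunit of the factor that acts on synaptic promoters, had −0.17 (SE 0.06, adjusted p = 0.0297) and Syne1, which anchors synaptic nuclei, 0.35 (SE 0.10, adjusted p = 0.00320) per the authors' deposited table. The ligand Nrg1 was at 1.22 and 1.37 TPM and did not pass. In PT against PUT, Gabpa (0.68, SE 0.08) and Gabpb1 (0.30, SE 0.12) were positive and Prkar1a (−0.61, SE 0.06) and Erbb2 (−0.55, SE 0.11) negative per the authors' deposited table.

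Of 7 regulators that respond to muscle activity and denervation, 2 fell in Mutant cells, and 2 others averaged under 1 TPM. The shares called were 17.1% of all genes and 27.6% of those of at least 1 TPM. Runx1, a transcription factor that is induced in denervated muscle, fell from 186 to 151 TPM (−0.24, SE 0.05, adjusted p = 0.000142), and the kinase gene Sik1 from 105 to 81.4 TPM (−0.39, SE 0.06, adjusted p = 7.05e-10), per the authors' deposited table. Both had the other sign in PT against PUT, with 0.96 (SE 0.06) for Runx1 and 0.34 (SE 0.08) for Sik1 per the authors' deposited table. Hdac5, a class II histone deacetylase, had −0.73 (SE 0.08) there, and 3 of 6 regulators were positive and 1 negative. The third positive call, Hdac9 (4.10, SE 1.58), named after its values were seen, rested on a mean of 3.14 normalised counts.

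**Figure D4:**
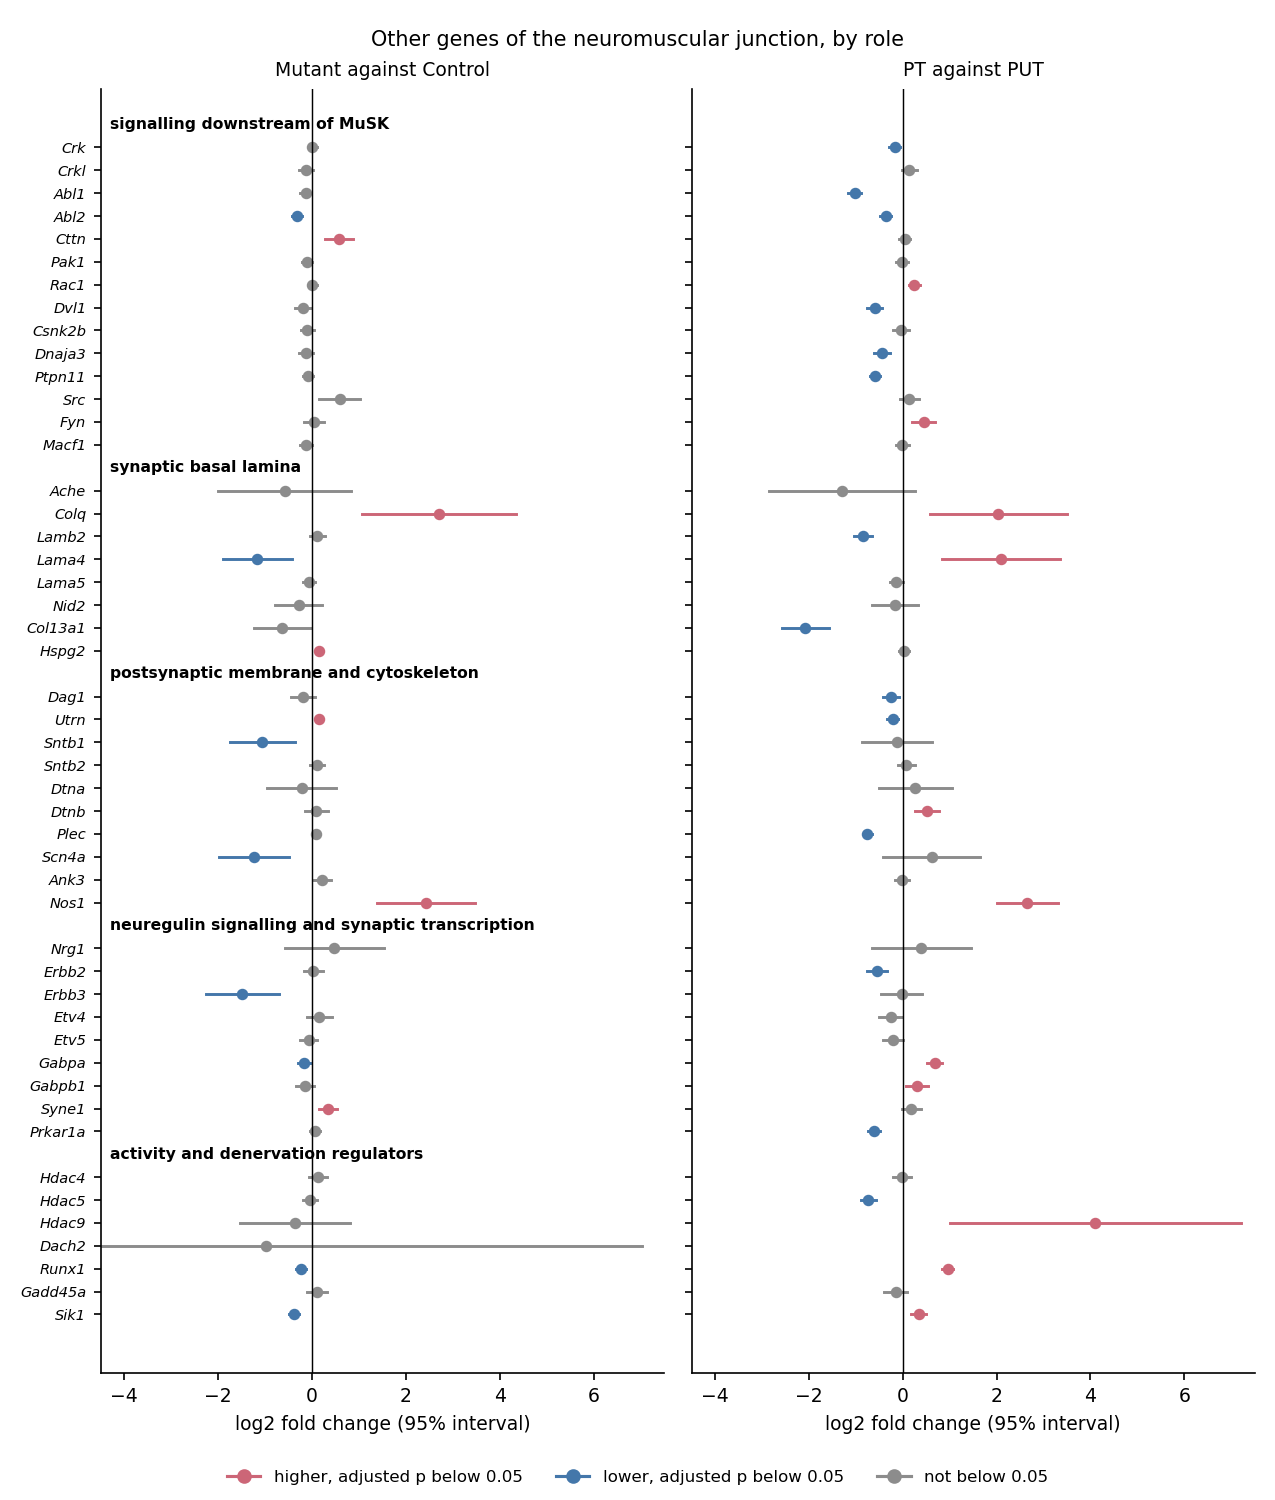
Log2 estimates (points) with 95% intervals (bars) of 48 other junction genes, grouped by role, in Mutant against Control (left) and PT against PUT (right), coloured as higher, lower or not past an adjusted p of 0.05. Most genes on the left lie near 0, with Colq (2.71), Nos1 (2.42), Erbb3 (−1.49), Scn4a (−1.24), Lama4 (−1.16) and Sntb1 (−1.06) farther out among the called genes, and the interval of Dach2 on the left (−8.97 to 7.03) runs past the lower edge of the axis.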

How the data were processed

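RNA of cultured satellite cells was sequenced as paired reads after ribosomal RNA depletion, per the labels' protocols for Control and Mutant. Per the submitters' processing notes, Trim Galore 0.6.6, STAR 2.7.6a (HISAT2 2.2.1 for Cre Control), featureCounts 2.0.1 and DESeq2 were used, with no role or order given. For the Mutant and Control genes the authors deposited mean TPM, the log2 fold change with a standard error, a score (the statistic of their test) and p-values before and after adjustment. That fold change is the log2 ratio of the means plus 1 (within 4.79e-08) and not the quantity tested, so each value printed with a standard error is the statistic times the standard error, called the estimate. The table of PT and PUT gives, per the file headers, a mean signal (normalised counts averaged by the authors), log2 fold changes, a score and p-values. The authors deposited counts per repeat subfamily, used for 1 share per library. Total repeat counts ran from 1794698 to 2245124, the intervals cover counting error only, and gene depth is unknown.

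Calls use the deposited adjusted p (DESeq2, per the processing notes) below 0.05, and 95% intervals are normal ones from the SE. The labels do not tie libraries to animals, and the spread behind the p-values may be technical. The p-values were adjusted again in Python 3.11.15 for the alternatives, a step tested on simulated data. Members and gene lists were chosen with earlier results of these data known. Named genes are all members, the genes per role of the wider, muscle regulation and neuronal receptor lists that passed with at least 1 TPM (at most 4 per direction by mean TPM), a few fixed genes, and the highest marker. Cre Control was not analysed here. 1 gene of the wider list is not reported here, and its counts leave that gene out.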

Additional observations from a re-analysis of the deposited data

How the results depend on the processing

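At an adjusted p of 0.1, 5 junction genes passed in Mutant against Control in place of 3, Lrp4 and Rapsn being the additions, and at 0.01 the wider list had 8 calls in place of 14. The other planned settings (the remaining thresholds, and adjustment over genes of at least 1 TPM or 10 normalised counts, or over every gene) left these counts within 1.5 times, with Lrp4 lost in PT against PUT at 0.01. In the wider list, adjustment over genes of at least 1 TPM left out Colq and Lama4 and added Src. Over genes of at least 10 normalised counts, Colq and Hdac9 were left out in PT against PUT. Using the ratio of mean TPM with a pseudocount of 1 or 0.1 moved 18 of 20 estimates by less than their SE. The exception was Dok7 (−0.34 in place of −0.49 under both), and for Chrnb1 and Agrn, neither called, the sign differed. No paired analysis was possible because the gene tables hold no values per library, and for the same reason no library could be left out. Gene depth is unknown, and Chrne, at a mean of 0.272 TPM, had an interval too wide to show a change.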
